A study of Homo sapiens with 8 samples.

Results

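The U4 and U5 small nuclear RNAs were followed in 8 small RNA libraries of HEK293 cells, a human embryonic kidney line. All rows of the count table whose names begin with RNU4-, U4, RNU5 or U5 were taken, without the minor spliceosome's U4atac rows. This gave 50 of 2962 rows, 33 for U4 and 17 for U5. Of these, 7 are parent genes, RNU4-1, RNU4-2, RNU5A-1, RNU5B-1, RNU5D-1, RNU5E-1 and RNU5F-1, and 43 are copies, named with a trailing P or, for U4.7, with a number. In 4 libraries, called scramble, the cells had been given a scrambled control mimic, and in 4, called tDR, a synthetic copy of a fragment from the 3′ side of tRNA-Asp-GTC (a tRNA-derived RNA, tDR). All cells received 50 nM of RNA with a lipid reagent and were collected after 48 h, so the controls share the transfection. RNA was extracted with TRIzol and converted with OTTR-seq, where template jumping by a reverse transcriptase adds both adapters. Separate cultures are not stated in the labels, and p-values then reflect only how far these libraries spread, which may be technical.

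U4 and U5 are parts of the tri-snRNP, the particle of U4, U6 and U5 that joins the spliceosome before catalysis. U4 is base-paired to U6 and keeps it inactive until the helicase Brr2 unwinds the pair, while U5 holds the ends of both exons through its invariant loop 1. Both RNAs are made by RNA polymerase II and carry a ring of Sm proteins on a short run of U flanked by A and G. The human genome holds several U5 genes, which give the variants A, B, D, E and F, and many pseudogene copies of both RNAs. The RNAs of RNU5A-1 and RNU5B-1 are usually described as the main U5 forms in human cells.

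The U5 genes are alike enough that short reads cannot always be given to 1 of them. RNU5A-1 and RNU5B-1 were 94.0% identical over their alignment, RNU5D-1 and RNU5B-1 83.1%, and RNU5D-1 and RNU5E-1 had 65 bases in a row in common. The letter in a copy's name did not always give its closest gene, since RNU5E-4P was 87.6% identical to RNU5A-1 and 86.0% to RNU5E-1, and RNU5E-6P 83.8% and 83.5%. RNU5D-2P is a fragment of 50 bases with 1 substitution from RNU5D-1 and from RNU5E-1. All 5 U5 genes hold the Sm site letters ATTTTTTG, searched on the RNA strand only, and so do 5 of the 12 U5 copies, RNU5A-8P and RNU5E-6P among them but not RNU5E-4P. Of 1900 snRNA transcripts in GENCODE, 1.32% held these letters. Sequences, written with T for U, and positions were read from GENCODE release 29, built on GRCh38 (hg38).

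The 2 U4 genes differ at 4 of their 141 bases, shown because reads must cover these to tell the genes apart. They are capitals in RNU4-1, set against RNU4-2, where capitals mark the Sm site letters ATTTTTG instead. Of the GENCODE snRNA transcripts 6.11% held those letters on the RNA strand.
RNU4-1: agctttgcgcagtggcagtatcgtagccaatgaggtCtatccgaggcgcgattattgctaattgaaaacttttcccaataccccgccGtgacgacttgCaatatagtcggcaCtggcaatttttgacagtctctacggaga
RNU4-2: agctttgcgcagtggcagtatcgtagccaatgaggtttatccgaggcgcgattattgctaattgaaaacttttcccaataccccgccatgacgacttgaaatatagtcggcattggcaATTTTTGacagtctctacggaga
Their longest run in common is 50 bases. RNU4-2 lies on chromosome 12 at 120291763 to 120291903 and RNU4-1 at 120293097 to 120293237, both on the minus strand, 1193 bases apart and outside protein-coding genes. The U5 genes also lie in pairs. RNU5A-1 (chromosome 15, 65296051 to 65296166) and RNU5B-1 (65304677 to 65304792) are 8510 bases apart on the plus strand. RNU5F-1 (chromosome 1, 44721786 to 44721902) and RNU5D-1 (44731055 to 44731170) are 9152 bases apart on the minus strand. RNU5E-1 (chromosome 1, 11908152 to 11908271, plus strand) lies 1536 bases from the copy RNU5E-4P (11909808 to 11909927, minus strand). RNU5A-1 and RNU5F-1 lie in introns of PARP16 and ARMH1, on the opposite strand.

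Counts summed over the genes of the table ran from 4016295 to 10246336 per library. The U4 rows held between 510 and 1258 of these counts and the U5 rows between 3845 and 8564. A row named scr2, not explained by the labels, stood at 3522 to 5647 CPM (counts per 1e6 counts of the library) in the scramble libraries and at 7.37 to 34.7 in the tDR libraries, with no overlap. The edgeR quasi-likelihood test with Benjamini-Hochberg adjustment over the whole table covered 1761 rows and called 118 at an adjusted p below 0.05. The microRNAs listed for HEK293 and dividing cells were all in the table, 7 of 7, among them miR-17-5p and miR-92a-3p, and summed to 1170 to 1780 CPM, from here on scaled by edgeR's TMM factors, in the scramble libraries and 701 to 1212 CPM in the tDR libraries. One of them fell, hsa-miR-92a-3p, from 777 ± 133 to 450 ± 139 CPM (SD, n = 4 each, edgeR adjusted p = 0.0229). Of kidney epithelium markers 2 of 7 were in the table (10.9 to 16.4 and 7.68 to 12.5 CPM), of blood markers 1 of 5 (up to 0.948 and 0.835 CPM), of endothelial markers 2 of 2 (4.32 to 6.51 and 5.29 to 9.95 CPM), of neuronal markers 3 of 3 (46.0 to 69.2 and 36.7 to 64.4 CPM) and of muscle markers 2 of 2 (0.254 to 2.09 and 1.54 to 3.82 CPM). Most of the neuronal sum was hsa-miR-9-5p, with means of 48.9 and 45.7 CPM. A fall was called for hsa-miR-128-3p, from 12.0 to 5.57 CPM (edgeR adjusted p = 0.00769). The third, hsa-miR-124-3p, stood at 0.142 and 0.244 CPM and was not tested. The part of all these markers in the results was not tested.

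RNU5D-1, the gene of the U5D variant, had the highest level of all 50 rows. Scramble libraries 1 to 4 gave 251, 406, 411 and 397 CPM, and tDR libraries 1 to 4 gave 459, 383, 320 and 307 CPM. Scramble library 1 was the lowest of the 8, and the groups overlapped. RNU5D-1 made up 68.8 ± 4.99% of the counts of the 5 U5 genes in the scramble libraries and 66.2 ± 1.89% in the tDR libraries (SD, n = 4 each). RNU5B-1 followed with 11.7 ± 1.71% and 12.0 ± 0.375%, RNU5A-1 with 7.43 ± 1.67% and 7.996 ± 0.660%, RNU5E-1 with 6.58 ± 0.945% and 7.97 ± 0.864%, and RNU5F-1 with 5.46 ± 0.909% and 5.81 ± 0.260%. These shares are of counts as deposited, and the handling of reads that match several rows was not given in the sources used here. How far counts follow the amount of each RNA in the cells was not tested.

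Set per 100 annotated bases, the mean level over all libraries was 316 CPM for RNU5D-1, and the next row, RNU5A-8P, stood at 87.7 CPM, 3.60-fold lower. Their ranges did not meet. RNU5A-8P was above RNU5E-4P (61.8 CPM per 100 bases) in 8 of 8 libraries, although their ranges overlapped. RNU5E-4P was above RNU5B-1 (54.9 CPM per 100 bases) in 7 of 8 libraries, and RNU5B-1 above RNU5E-6P (42.8) in 7 of 8. RNU5E-6P was above RNU5A-1 (35.4) in 6 of 8, RNU5A-1 above RNU5E-1 (32.6) in 6 of 8, RNU5E-1 above RNU5F-1 (25.9) in 7 of 8, and RNU5F-1 above RNU4-2 (22.5) in 6 of 8, with overlapping ranges at each step. So 3 U5 copies stood among the U5 genes in level. Alone among the U5 copies, these 3 hold a run of 38 bases that all the U5 genes share. Reads from that run cannot be told apart by sequence, and their part in these levels was not tested. Below the U5 genes and these 3 copies came RNU4-2, apart in range from RNU5D-2P (16.4 CPM per 100 bases). RNU4-1 (15.6 CPM per 100 bases) overlapped RNU5D-2P and stood above the leading U4 copy, RNU4-46P (6.91), in 8 of 8 libraries with ranges apart. This lower part of the order depends on the division by length. In plain CPM, RNU4-2 (mean 31.8) was above RNU5F-1 (30.3). RNU5D-2P, of 50 bases, had a mean of 8.22 CPM, below RNU4-1 (21.9) and RNU4-46P (9.53). The other 38 rows had mean levels of at most 5.01 CPM, not set per length.

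**Figure D1:**
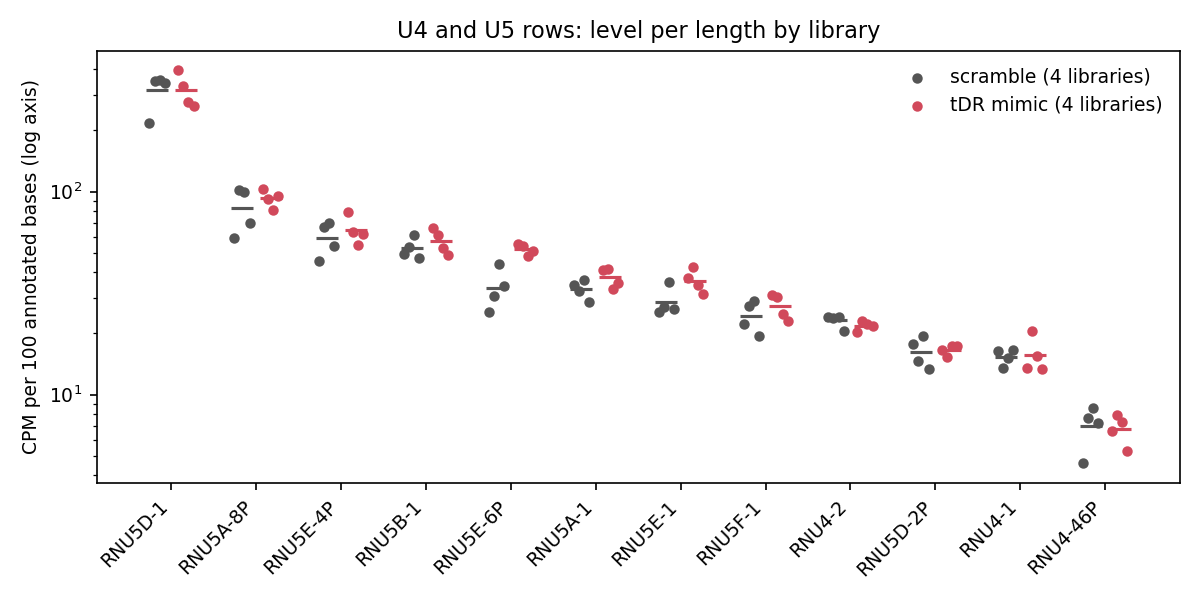
Level of the 7 U4 and U5 genes and the 5 copies with the highest levels, in CPM per 100 annotated bases on a log axis, for each of the 4 scramble (grey) and 4 tDR (red) libraries; lines are group means. RNU5D-1 stands above the other rows in every library, and RNU5E-6P is the row whose groups do not overlap.

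Whether the tDR mimic changed these RNAs was asked of each row. Of the 50 rows, 28 passed the filter on low counts and were tested, all 7 genes, 16 of 31 U4 copies and 5 of 12 U5 copies; the 22 others had mean levels up to 1.14 CPM. One row rose and 0 fell, 3.57% of the 28, beside 6.70% called in either direction over the whole table (5.34% higher and 1.36% lower). At an unadjusted p below 0.05 there were 8 of 28, beside 21.5% of all rows; 7 of them were higher (25.0%, beside 12.8%) and 1 was lower (3.57%, beside 8.69%). The fold change was above 1 for 19 of 28 rows (67.9%, beside 52.2%). Of the 7 higher rows at the unadjusted p, 5 were U4 copies of few counts that share sequence. The rows are not independent, so these shares cannot be read against those of all rows as if they were. The median log2 fold change was 0.15 over the 28 rows, 0.17 over the 5 U5 genes and -0.030 over the 2 U4 genes, against 0.02 over all rows tested. In bulk RNA, fewer cells and less RNA per cell cannot be told apart.

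Of the 7 genes 0 passed the threshold with edgeR, DESeq2 or limma-voom, and 1, RNU5E-1, had an unadjusted p below 0.05 with edgeR. Scramble libraries 1 to 4 gave 30.7, 32.5, 43.1 and 31.5 CPM for RNU5E-1, and tDR libraries 1 to 4 gave 44.8, 50.8, 41.7 and 37.4 CPM. Scramble library 3 lay within the tDR range. The log2 fold change was 0.35 (SE 0.16, edgeR adjusted p = 0.226). Under scaling on microRNAs alone, which moved the median of all rows to 0.36, it was 0.69 and passed (edgeR adjusted p = 0.0498).

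RNU5B-1 gave 56.9, 62.1, 71.0 and 54.4 CPM in the scramble libraries and 76.7, 70.8, 61.1 and 56.3 CPM in the tDR libraries. RNU5A-1 gave 40.0, 37.7, 42.4 and 33.3 CPM against 47.8, 48.0, 38.4 and 41.2 CPM. RNU5F-1 gave 25.9, 32.0, 33.7 and 22.7 CPM against 36.3, 35.5, 29.2 and 27.1 CPM. In each of these U5 variants the groups overlapped. The 2 highest values of RNU5A-1 and RNU5F-1 came from tDR libraries 1 and 2, and for RNU5B-1 scramble library 3 lay between those libraries. Their log2 fold changes were 0.12 (SE 0.15), 0.20 (SE 0.15) and 0.17 (SE 0.17), with edgeR adjusted p of 0.743, 0.497 and 0.652. For RNU5D-1 the log2 fold change was 0.0035 (SE 0.18), with an edgeR adjusted p of 0.995, and -0.14 without scramble library 1.

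Neither U4 gene passed the test. RNU4-2 gave 34.2, 33.8, 34.1 and 28.9 CPM in the scramble libraries and 28.6, 32.4, 31.3 and 30.7 CPM in the tDR libraries. RNU4-1 gave 23.0, 19.1, 21.3 and 23.4 CPM against 19.1, 28.8, 21.8 and 18.9 CPM, with tDR library 2 the highest. The groups overlapped for both. Their log2 fold changes were -0.088 (SE 0.15) and 0.027 (SE 0.18), with edgeR adjusted p of 0.823 and 0.948; both signs depended on the scaling, with 0.25 for RNU4-2 on microRNAs alone and -0.14 for RNU4-1 under total counts.

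**Figure D2:**
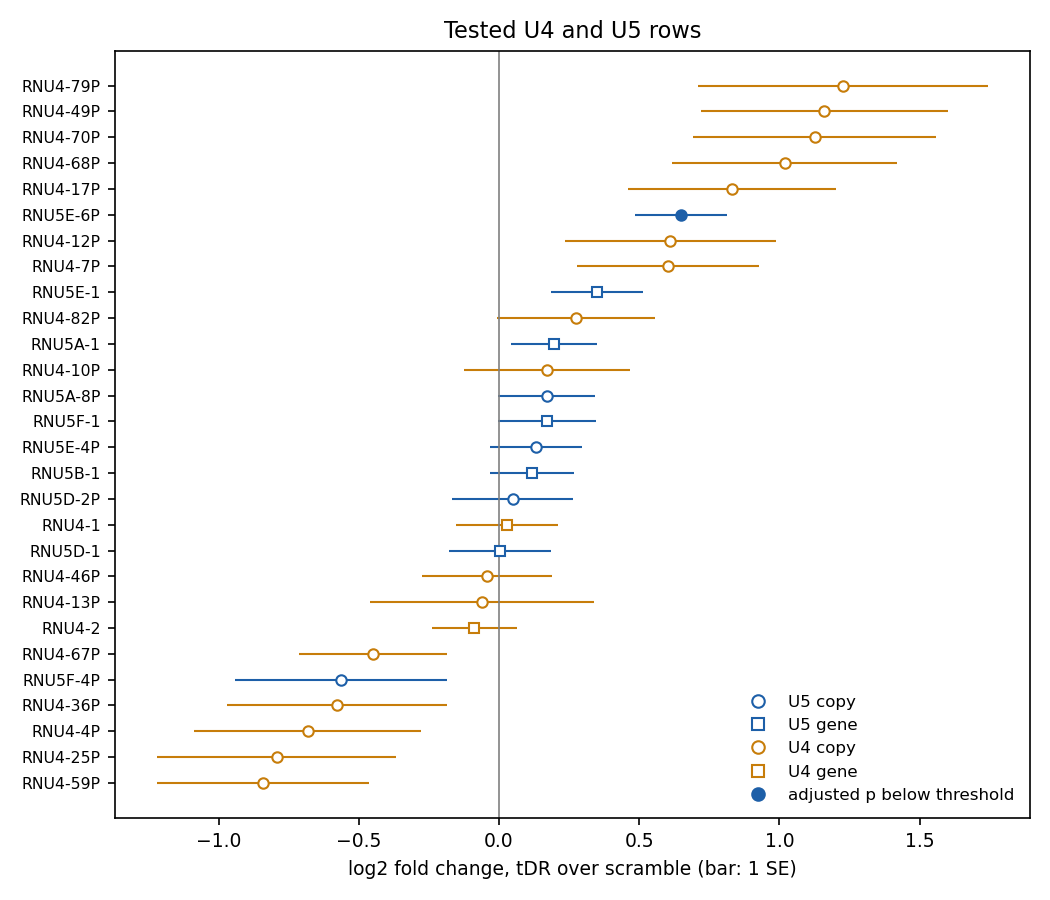
Log2 fold change of tDR over scramble libraries with 1 SE for the 28 tested rows; squares are genes, circles copies, blue U5 and orange U4, and the filled symbol is the row past the threshold. RNU5E-6P, at 0.65, is that row; the widest bars belong to U4 copies with few counts.

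The row that rose was RNU5E-6P, a U5 copy of 115 bases with the Sm site letters. It lies within an annotated exon of a protein-coding gene on the same strand, so reads of that mRNA and of the copy cannot be told apart by position. Scramble libraries 1 to 4 gave 29.2, 34.99, 50.3 and 39.3 CPM, and tDR libraries 1 to 4 gave 63.8, 62.3, 55.2 and 58.4 CPM. Every tDR library was above every scramble library, as for 7.78% of all rows tested. The means were 38.4 ± 8.92 and 59.9 ± 3.88 CPM (SD, n = 4 each), or 0.65 higher on the log2 scale (SE 0.17), with an edgeR adjusted p of 0.0222. The call was lost without scramble library 1, 2 or 4 (edgeR adjusted p = 0.0592, 0.0803 and 0.0548) and under total counts (0.138), while over all alternatives the adjusted p ran from 0.0026 to 0.138. Relative to the median of all rows, its log2 fold change was 0.63 with TMM, 0.62 under total counts and 0.66 on microRNAs alone. A change of scaling moves all rows by nearly the same amount, so these values had to be close and are no check of the call.

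Ratios within a library do not depend on scaling. Scramble libraries 1 to 4 had RNU5E-6P counts at 0.534, 0.438, 0.601 and 0.605 of those of RNU5E-4P, and tDR libraries 1 to 4 at 0.669, 0.825, 0.848 and 0.790. Set against RNU5D-1 they were 0.0863 to 0.123 in the scramble libraries and 0.139 to 0.190 in the tDR libraries, and against RNU5B-1 0.513 to 0.722 and 0.831 to 1.04. The groups did not overlap in these 3 ratios or in the ratio to RNU5A-8P (0.301 to 0.493 and 0.541 to 0.596). They overlapped in the ratio to RNU5E-1, at 0.950 to 1.25 and 1.23 to 1.56. These 5 ratios were chosen after the values were seen and have no test. All share the counts of RNU5E-6P, the row already called, so they are not independent of each other or of that call.

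None of the other U5 copies passed the test. RNU5A-8P lies inside an intron of HHAT, on the opposite strand (chromosome 1, 210374154 to 210374267). It gave 67.7, 116, 113 and 79.6 CPM in the scramble libraries and 118, 105.2, 92.7 and 108 CPM in the tDR libraries. RNU5E-4P gave 54.7, 79.9, 83.8 and 64.9 CPM against 95.4, 75.6, 65.1 and 73.9 CPM. In both rows scramble library 1 was the lowest and tDR library 1 the highest. Their log2 fold changes were 0.17 (SE 0.17) and 0.13 (SE 0.16), with edgeR adjusted p of 0.642 and 0.740. RNU5D-2P stood at 8.14 ± 1.37 and 8.31 ± 0.474 CPM (SD, n = 4 each, log2 fold change 0.050, edgeR adjusted p = 0.931). RNU5F-4P stood at 1.98 ± 0.449 and 1.35 ± 0.0667 CPM (SD, n = 4 each, log2 fold change -0.56, edgeR adjusted p = 0.417). Every tDR library was below every scramble library for RNU5F-4P, as for 5.51% of all rows tested. This depends on the scaling, since scramble library 3 held 7 counts of it and the tDR libraries 9 or 10. The 7 untested U5 copies had means up to 0.612 CPM.

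The 6 ratios between genes were tested with exact two-sided permutation tests over 70 arrangements, adjusted over the 6. Scramble libraries 1 to 4 gave 0.540, 0.524, 0.608 and 0.579 for RNU5E-1 to RNU5B-1, and tDR libraries 1 to 4 gave 0.584, 0.718, 0.683 and 0.665. Only tDR library 1 lay within the scramble range. The difference was 0.23 on the log2 scale (log2 ratios -0.83 ± 0.097 and -0.60 ± 0.13, SD, n = 4 each, exact permutation p = 0.0571, adjusted p = 0.343). The others differed by 0.10 for RNU4-1 to RNU4-2, 0.079 for RNU5A-1 to RNU5B-1, -0.10 for RNU5D-1 to RNU5B-1, 0.058 for RNU5F-1 to RNU5B-1 and -0.20 for RNU4-2 to RNU5B-1, each with an adjusted p of 0.600. None passed. The smallest p that 4 against 4 libraries can give is 0.0286, and a single ratio at that value would not pass once adjusted over the 6. RNU4-1 counts were 0.565 to 0.889 of those of RNU4-2 over the 8 libraries, and RNU5D-1 counts 4.42 to 7.30 times those of RNU5B-1. RNU5F-1 counts were 0.418 to 0.516 of those of RNU5B-1.

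**Figure D3:**
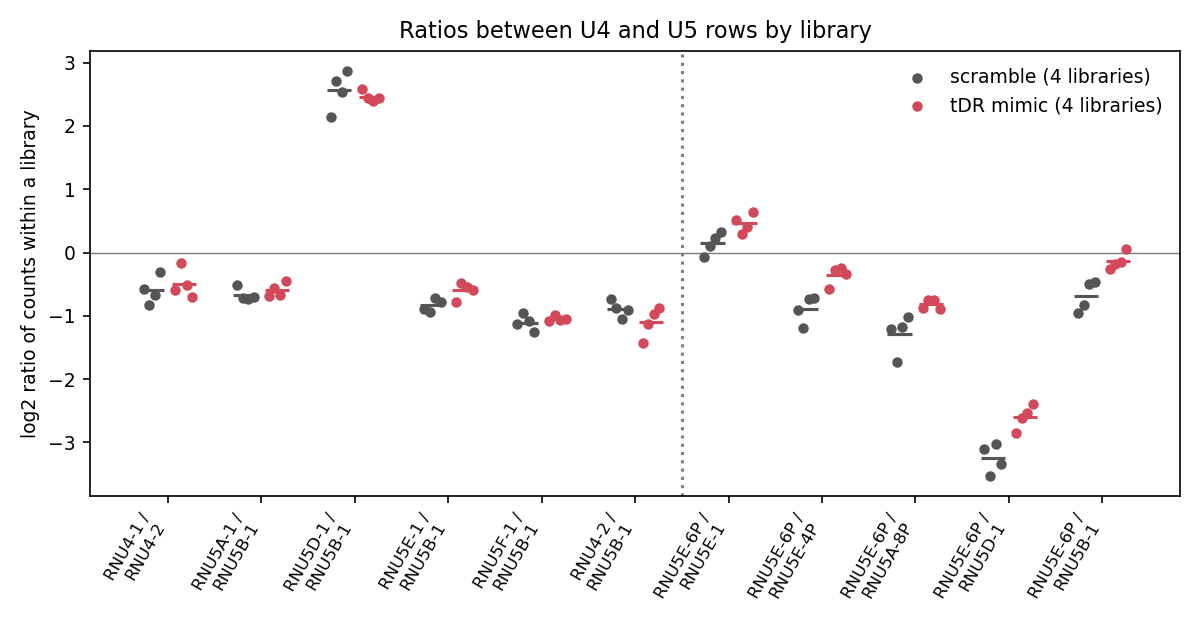
Log2 ratio of counts between pairs of rows within each library, grey for scramble and red for tDR, with group means as lines. Left of the dotted line are the 6 tested ratios between genes, whose groups all overlap; right of it the 5 ratios of RNU5E-6P, of which the 4 to rows other than RNU5E-1 do not overlap.

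The 31 U4 copies gave few counts, and their sums, 263 to 700 counts per library, were close to those of the 2 U4 genes, 247 to 601. RNU4-46P was the highest, with 6.35, 10.5, 11.9 and 10.0 CPM in the scramble libraries and 9.13, 10.9, 10.2 and 7.26 CPM in the tDR libraries (log2 fold change -0.043, SE 0.23, edgeR adjusted p = 0.934). It is annotated in a UTR of TMC5 on the same strand. RNU4-67P followed at 5.81 ± 1.43 and 4.22 ± 0.633 CPM (SD, n = 4 each), then RNU4-10P, RNU4-82P and RNU4-7P whose log2 fold changes were 0.17, 0.28 and 0.60. Among the 16 tested copies 0 were called by edgeR, beside 6.70% of all rows, 6 had an unadjusted p below 0.05, beside 21.5%, and DESeq2 and limma-voom called 0. Under scaling on microRNAs alone edgeR called RNU4-49P, RNU4-70P, RNU4-68P and RNU4-17P higher. That scaling moved the median of all rows to 0.36, and 157 of 1761 rows were called higher and 1 lower.

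Some of the U4 copies are shown against RNU4-2, with capitals for bases that differ from it; bases missing from a copy are not shown.
RNU4-49P: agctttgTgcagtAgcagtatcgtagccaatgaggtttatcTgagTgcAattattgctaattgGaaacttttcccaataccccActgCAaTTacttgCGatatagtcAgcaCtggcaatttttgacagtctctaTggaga
RNU4-70P: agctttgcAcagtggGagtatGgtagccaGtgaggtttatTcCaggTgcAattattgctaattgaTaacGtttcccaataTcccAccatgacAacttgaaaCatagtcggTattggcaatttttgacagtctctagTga
RNU4-67P: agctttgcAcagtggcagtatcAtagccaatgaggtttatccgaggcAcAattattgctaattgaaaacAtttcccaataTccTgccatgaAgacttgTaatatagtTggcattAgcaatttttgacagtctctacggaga
RNU4-59P: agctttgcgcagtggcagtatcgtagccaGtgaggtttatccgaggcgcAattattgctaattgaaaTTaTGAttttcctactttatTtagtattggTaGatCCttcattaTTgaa
All 4 begin with agctttg, as the genes do. RNU4-49P, RNU4-70P and RNU4-67P are 139 to 141 bases long and hold the Sm site letters, which RNU4-59P, 116 bases long, lacks.

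The 5 U4 copies with an unadjusted p below 0.05 and a positive fold change, RNU4-17P, RNU4-49P, RNU4-68P, RNU4-70P and RNU4-79P, share the 21 bases ggcaATTTTTGacagtctcta, with the Sm site in capitals, which both U4 genes hold as well. Scramble libraries 1 to 4 gave 0.381, 1.61, 1.35 and 1.83 CPM for RNU4-49P, and tDR libraries 1 to 4 gave 3.13, 4.83, 2.09 and 1.95 CPM. RNU4-70P gave 0.381, 1.90, 1.80 and 1.83 CPM against 3.95, 4.83, 2.37 and 1.95 CPM. Every tDR library was above every scramble library in both, as for 7.78% of all rows tested, with scramble library 1 the lowest, at 3 counts in each row. The gaps were narrow and depend on the scaling. In tDR library 4 each row held 14 counts, against 21 for RNU4-49P in scramble library 4 and 20 for RNU4-70P in scramble library 2. Their log2 fold changes were 1.16 (SE 0.44) and 1.13 (SE 0.43), with edgeR adjusted p of 0.131 and 0.134. RNU4-68P stood at 1.02 (SE 0.40, edgeR adjusted p = 0.143), RNU4-79P at 1.23 and RNU4-17P at 0.83. These rows had 1 to 38 counts per library and share sequence, so they are not independent of each other.

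All 8 copies that hold the 21 bases were tested. Their log2 fold changes ran from -0.043 to 1.23 with a median of 0.92, and 7 were above 0. The median rests on the 5 copies that defined the stretch: the 3 others, RNU4-46P, RNU4-10P and RNU4-7P, stood at -0.043, 0.17 and 0.60. Of the 22 other placed copies 8 were tested, from -0.84 to 0.61 with a median of -0.51, and 2 were above 0. This second group lacks the 5 defining copies by the way the stretch was found, so its lower median was also partly set in advance. The split is a description without a test. Over all 12 tested copies with the Sm site letters the log2 fold changes ran from -0.58 to 1.23, with 8 above 0 and 4 below, among them RNU4-67P at -0.45, which holds those letters but not the whole stretch. Of the tested copies 3 begin with the same 22 bases as the U4 genes, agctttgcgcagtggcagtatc, a length set after the values were seen, and lack the 3′ stretch: RNU4-59P, RNU4-25P and RNU4-4P, at -0.84 (SE 0.38), -0.79 (SE 0.43) and -0.68 (SE 0.40). Their edgeR adjusted p were 0.208, 0.287 and 0.345. RNU4-59P gave 1.78, 2.37, 2.70 and 2.70 CPM in the scramble libraries and 0.954, 1.56, 1.67 and 1.12 CPM in the tDR libraries, without overlap. RNU4-25P gave 2.79, 2.56, 2.70 and 2.70 CPM against 0.818, 2.34, 2.50 and 0.559 CPM, also without overlap, as for 5.51% of all rows in this direction. The gaps in RNU4-59P and RNU4-25P were narrow and depend on the scaling. RNU4-59P held 12 counts in scramble library 3 and 12 in tDR library 3. RNU4-25P held 12 in scramble library 3, against 15 and 18 in tDR libraries 2 and 3. In RNU4-4P tDR library 3, at 4.04 CPM, was above all scramble libraries. With the first 8 bases alone, AGCTTTGC, the copies number 10 among those tested, 5 above 0 and 5 below, RNU4-70P, RNU4-68P, RNU4-12P and RNU4-7P among the higher, so the direction of the 3 depends on the length. The U4 genes hold both stretches and stood at -0.088 and 0.027. Among all 1900 GENCODE snRNA transcripts 0.526% hold the 3′ stretch and 0.474% begin with the 5′ stretch.

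**Figure D4:**
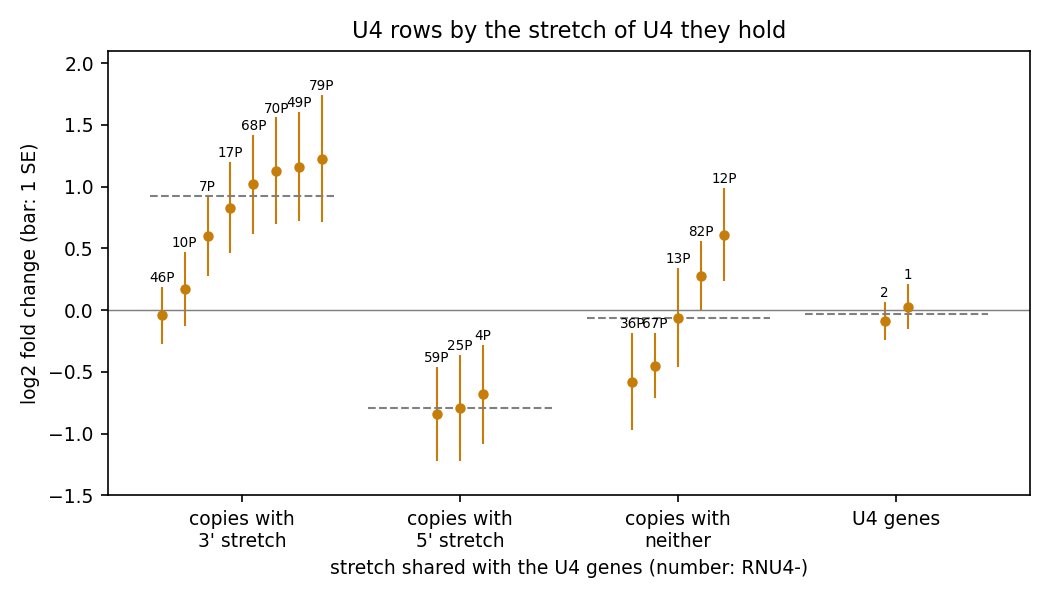
Log2 fold change with 1 SE of the tested U4 rows, grouped by whether they hold the 21-base 3′ stretch, begin with the 22-base 5′ stretch, or have neither; dashed lines are medians and labels the number after RNU4-. Copies with the 3′ stretch lie between -0.043 and 1.23, the 3 with the 5′ stretch between -0.84 and -0.68, and the U4 genes near 0. Both stretches were set after the values were seen, so the distance between the groups is no test.

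Of the 49 rows placed in GENCODE, 24 lie in introns and 2 in exons of protein-coding genes, and 23 outside them. U4.7 was not placed. A row joined a set when no library set its counts more than 10% or 3 counts, whichever was larger, from those of the set's highest row. Rows were not compared with the other rows of the set, and the 3 counts make a match easier for rows of few counts. By this rule the 50 rows formed 42 sets and the 28 tested rows 28 sets. RNU4-58P, RNU4-14P and U4.7 fell into 1 set with RNU4-84P, all at 0.898 to 0.960 CPM. In 8 copies a library held 0 counts, which leaves room for 3 counts, or 0.284 to 0.674 CPM in the libraries concerned. Across 30 U4 copies the identity to the closest gene and the log2 level had a Pearson r of 0.33 and a Spearman rho of 0.37, and across 12 U5 copies -0.090 and 0.18; copies of a family share libraries and reads.

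The rows most like each gene over the 8 libraries were found by Pearson correlation of log2 CPM among 1752 rows. For RNU5D-1 they were SNORD18C (r = 0.97), hsa-miR-16-5p (0.96) and SNORD45A (0.95). RNU5B-1 was closest to SNORA8 and SNORA15 (both 0.97), and RNU5F-1 to SNORA15B-2 and SNORA15B-1 (both 0.95) and then to RNU5B-1 (0.94). For RNU4-1 the closest rows were RNA5SP343 (0.91), RNA5SP267 (0.88) and RNA5SP199 (0.87). The libraries span both groups, and each r is the highest of many.

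Other small nuclear RNA rows were taken from a list of 18, all of them tested, in 12 sets of near-equal counts. Of these 2 rose, RNU1-27P and RNU1-28P, rows of U1, the RNA that recognises the 5′ splice site, and 0 fell, beside 6.70% of all rows called. Both names end in P, so by the naming used here for U4 and U5 they would count as copies and not as genes. At an unadjusted p below 0.05 there were 8 of 18, beside 21.5%, among them RNU1-1 to RNU1-4, with log2 fold changes of 0.41, and RNU6ATAC at -0.48 (SE 0.15, edgeR adjusted p = 0.0662). RNU1-1 to RNU1-4 form a single set, with 55760 to 55768 counts each over all libraries. The 8 rows are therefore not independent, and their share cannot be read against 21.5% as if they were. The counts of the 2 called rows nearly equal each other, and RNU1-27P went from 572 ± 12.5 to 852 ± 120 CPM (SD, n = 4 each, log2 fold change 0.57, SE 0.15, edgeR adjusted p = 0.024). Neither was called without scramble library 2 or 3 or without tDR library 2. RNU6-1, the gene of the U6 RNA that pairs with U4, stood at -0.080 (SE 0.14, edgeR adjusted p = 0.8293), and RNU2-1 at -0.064. Their levels were far above those of the U4 and U5 rows. RNU6-1 had means of 4443 and 4204 CPM in the scramble and tDR libraries, and RNU2-1 10010 and 9577 CPM. The list's median was 0.079, beside 0.15 for the U4 and U5 rows and 0.02 for all rows. RNU4ATAC, the U4 counterpart in the minor spliceosome, stood at 0.17 (SE 0.19, edgeR adjusted p = 0.704). Small Cajal body RNAs that guide modification of U4 or U5 were low: 6 of 7 were tested, 0 were called by edgeR and 0 had an unadjusted p below 0.05. They summed to 32.0 to 34.8 CPM in the scramble libraries and 29.6 to 35.4 CPM in the tDR libraries.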

How the data were processed

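Small RNA of 8 HEK293 libraries was used, 4 per group; groups and replicate numbers come from the labels' titles. Raw counts, whole numbers for 2964 features, were deposited by the authors. The deposited normalized signal is the count divided by a factor per library, estimated in a way not given in the sources used here. Reads were placed on hg38, per the submitters' processing notes; aligner, counter and annotation: not given in the sources used here. Rows scr and scr2 were left out, 2962 remaining.

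The raw counts of all rows were fitted with edgeR 4.0.16 (R 4.3.3): filterByExpr, TMM, robust quasi-likelihood F test without covariates, Benjamini-Hochberg adjustment, threshold 0.05. SE was taken as |log2 fold change| over the root of F. Simulated data with the libraries' depths (1684 rows) gave back 79 of 97 rows set 1 log2 unit apart (81.4%) and 97 of 97 set 2 apart, with 11 false calls among 1490. The simulated rows were independent, had all levels of the table and were changed in both directions at random. Those percentages therefore do not hold for U4 copies of few counts or for rows that share reads. Replicates differed beyond sampling noise (lowest chi-square per degree of freedom 15.6). Alternatives were DESeq2 1.42.0, limma 3.58.1 (voom, and log2 of the deposited signal plus 1), other scalings and filters, near-equal rows taken once, the replicate block and each library left out. Named rows are all genes, called rows, and in each family the 5 highest copies and the 3 of lowest p; RNU4-12P, RNU4-14P, RNU4-17P, RNU4-25P, RNU4-4P, RNU4-58P, RNU4-59P, RNU4-79P, RNU4-84P, U4.7 and the listed RNAs that did not pass were named after their values were seen. Members and lists were chosen with earlier results of these data known. Sequences come from GENCODE release 29 transcripts; identity is over a global alignment (biopython 1.88). U5 sequences and the gene that overlaps RNU5E-6P are not reported here.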

Additional observations from a re-analysis of the deposited data

Results flagged for a closer look

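In 62 groups of 4 libraries examined for the named rows, ratios and shares, 7 held a library whose gap to the nearest other was, as a share of the group's range, above Dixon's critical value; chance gives about 1 in 20. RNU5D-1 in scramble library 1 stood at 251 CPM, against 397 to 411 CPM in the other scramble libraries. RNU4-70P in the same library stood at 0.381 CPM, against 1.80 to 1.90 CPM, and its log2 ratio of RNU5A-1 to RNU5B-1 was -0.51, against -0.74 to -0.71. RNU4-2 in scramble library 4 stood at 28.9 CPM, against 33.8 to 34.2 CPM. RNU5E-1 in scramble library 3 stood at 43.1 CPM, against 30.7 to 32.5 CPM. In tDR library 2, RNU4-7P stood at 7.01 CPM, against 2.92 to 3.54 CPM. In tDR library 1, RNU5D-1 made up 69.0% of the counts of the U5 genes, against 65.1 to 65.5%.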

How the results depend on the processing

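The single call among U4 and U5 rows became 0 with the replicate block, 0 under total counts and 6 when microRNAs alone set the scaling; with 1 library left out it was 0 to 1. Lower calls stayed at 0 in every alternative run. The 118 calls over all rows (94 higher, 24 lower) became 191 with DESeq2, 185 with limma on the deposited signal, 39 with the replicate block and 65 to 164 with 1 library left out; total counts gave 54 higher and 39 lower, and scaling on microRNAs alone 157 and 1. The 2 calls among the other snRNA rows listed became 1 under total counts, 8 with DESeq2 and 7 with limma on the deposited signal. They became 0 with the replicate block, 1 with each read set taken once and 0 to 3 with 1 library left out.

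Signs turned for rows near 0. Under total counts RNU4-1 stood at -0.14, RNU5B-1 at -0.027, RNU5D-1 at -0.15, RNU5E-4P at -0.0089 and RNU5D-2P at -0.091. On microRNAs alone RNU4-2 stood at 0.25 and RNU4-46P at 0.32. With a mean count of at least 50, RNU4-1 stood at -0.040 and RNU5D-1 at -0.064. RNU5D-1 was also at -0.018 with DESeq2 size factors, -0.018 with the DESeq2 test, -0.019 with TMM without snRNA rows and -0.0009 with no filter. RNU4-46P stood at 0.018 with limma on the deposited signal and 0.027 with each read set taken once. With 1 library left out RNU4-1 ran from -0.12 to 0.10, RNU5D-1 from -0.14 to 0.083, RNU4-46P from -0.20 to 0.064, RNU4-10P from -0.096 to 0.37 and RNU5D-2P from -0.050 to 0.11. The difference in the log2 ratio of RNU4-1 to RNU4-2 ran from -0.0084 to 0.20 and that of RNU5D-1 to RNU5B-1 from -0.24 to 0.0017. The cause of these changes was not tested; fits without a library have fewer libraries.

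Same-numbered libraries did not deviate together: their correlations were -0.34, -0.18, -0.26 and -0.12, so the numbers give no pairing. With the replicate block RNU5E-6P stood at 0.67 (edgeR adjusted p = 0.115), and the ratios, whose differences a block cannot move, had sign-flip p from 0.125 to 0.75, where 0.125 is the smallest possible and none could pass. The tested U4 copies other than RNU4-46P had mean counts below 50, which limits their precision.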
